A study of Mus musculus with 24 samples.

Results

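Transcripts of whole mouse brain were compared with those of 4 other tissues, to find which were raised and which were lowered in brain. The 3 arrays labelled Brain were set against 12 arrays, 3 each of heart, kidney, liver and testis, out of 24 arrays in the study. All 5 tissue groups came from male ICR mice, an outbred strain, at 8 weeks of age. The 3 arrays of a tissue are described as biological replicates, but no source ties an array to an animal, so the p-values below measure the spread between these arrays. Total RNA of each tissue was labeled with Cy3 and hybridized to an Arraystar mouse lncRNA array with 60804 transcript probes for long noncoding RNAs (lncRNAs) and mRNAs. The other 9 arrays, of 3 cultured cell lines, were not part of the comparison. Each sample was RNA of a whole organ, so fewer cells of a type and less RNA per cell cannot be told apart.

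The brain holds neurons, which signal through synapses built from neurotransmitter receptors, scaffold proteins and the machinery of vesicle release, and glia, which include the oligodendrocytes that make myelin, the astrocytes and the microglia. Many lncRNAs are transcribed from within or beside protein-coding genes of these cells, and the tissue is also known for high expression of imprinted genes, of which only the maternal or only the paternal copy is active. A level is given here as the log2 of the processed signal of a probe minus the 75th percentile of its array, and a difference is brain minus another mean on this log2 scale. A probe counted as detected on an array when the scanner software marked its signal as well above background.

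The files identify probes without symbols, and names came from the parts of the study's lists of lncRNAs available here. These parts cover 2820 of the 60804 probes. Of the list of brain lncRNAs, the part is the 1553 rows brightest in brain. The lists for F9, a cultured cell line, and for testis-specific lncRNAs were also available only in part. A symbol such as Gap43 therefore stands below for a noncoding transcript listed at that gene, although some probes are also listed for the coding mRNA. Of the named probes, 1829 have a listed sequence of 60 bases and a position. Of these, 1404 are on the F9 list, and the other 425 entered through the rows brightest in brain. The following stand among the 12 named transcripts with the largest excess over the nearest other tissue. Capitals mark the letters AATAAA, the polyadenylation signal that usually lies near the 3′ end of a transcript, and of the Gap43 probe the last 30 bases are shown.
Gap43: ggctcctttttcaatctgaatattAATAAA
AK021108: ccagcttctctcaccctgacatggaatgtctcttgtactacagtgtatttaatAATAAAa
AK079356: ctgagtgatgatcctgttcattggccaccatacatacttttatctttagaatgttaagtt
Meg3: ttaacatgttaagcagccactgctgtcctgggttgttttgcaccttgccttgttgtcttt
The Gap43 transcript (ENSMUST00000125187) is exonic sense to its gene at chr16:42248458-42276072 on the minus strand. AK021108 is intergenic at chr13:59133475-59133962 (plus strand), AK079356 is intergenic at chr4:56957174-56959609 (minus strand), and the Meg3 transcript NR_027651 spans chr12:109540996-109568600 (plus strand). The letters AATAAA were found in 212 of the 1829 sequences (11.6%) and their reverse complement in 41 (2.24%).

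The next set was chosen after the values were seen, because 6 of the same 12 transcripts carry the 7 letters TCTTCCC, which are in capitals below. For the transcripts that are exonic sense to a coding gene, 30 bases around the letters are shown.
Homer3: cctcatacttagTCTTCCCacatctgagca
Phkg1: tgcttttcttccagtTCTTCCCagacaact
Rmnd5a: aaggcacaggtgTCTTCCCagtgctacatg
AK040676: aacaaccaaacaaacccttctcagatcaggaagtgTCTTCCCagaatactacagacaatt
AK149829: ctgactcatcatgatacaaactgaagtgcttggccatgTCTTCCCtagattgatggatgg
AK157091: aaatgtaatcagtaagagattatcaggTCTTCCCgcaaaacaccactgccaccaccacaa
Gm15484: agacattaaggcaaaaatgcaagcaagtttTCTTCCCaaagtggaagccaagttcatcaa
The Homer3 transcript lies at chr8:70285931-70291738 (plus strand), that of Phkg1 at chr5:129866983-129870087 and that of Rmnd5a at chr6:71390467-71396282 (both minus strand). AK040676 is intergenic at chr16:64872824-64873883 and AK149829 at chrX:36381622-36386264, both on the minus strand. AK157091, an exonic antisense transcript at chr5:150643188-150644659 (plus strand), and Gm15484, an intronic antisense transcript of Zfp605 at chr5:110118022-110118849 (minus strand), were added as a raised carrier of these letters and one that was not raised, both from outside the 12.

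On the lowered side, the following were the 3 named transcripts below each other tissue. Of AK215672, which is exonic sense to Agpat2, the first 30 bases are shown.
AK215672: gtttggttctttttctataaatgaactctc
Gm15361: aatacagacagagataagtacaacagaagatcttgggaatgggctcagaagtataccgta
H2-K2: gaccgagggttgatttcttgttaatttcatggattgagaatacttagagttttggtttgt
AK215672 lies at chr2:26593062-26593750 (minus strand), and its probe is also listed for NM_026212, the Agpat2 mRNA. Gm15361 is intergenic at chrX:74494379-74494822 (minus strand) and H2-K2 is listed as intergenic at chr17:33974659-33978791 (minus strand). Other probes of lowered transcripts carry a repeat of GT and some of raised ones its reverse complement, and these are in capitals below. This set was chosen after the values were seen, and 30 bases are shown for the exonic sense transcripts Cyp51, Peli1 and 4930451C15Rik.
XLOC_023801: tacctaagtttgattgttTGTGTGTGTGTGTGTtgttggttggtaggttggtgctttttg
humanlincRNA0559: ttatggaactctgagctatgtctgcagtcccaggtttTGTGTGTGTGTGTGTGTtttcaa
Cyp51: actatacTGTGTGTGTGTGTGTGgtttttt
Peli1: cGTGTGTGTGTGTGTGTGTGagacagagag
AK134360: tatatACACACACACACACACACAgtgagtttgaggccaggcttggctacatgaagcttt
4930451C15Rik: aaACACACACACACACAtacacactccttg
XLOC_023801 is bidirectional to Med26 at chr8:72548395-72559780 (plus strand), humanlincRNA0559 is intergenic at chr14:56714686-56715350 (minus strand) and AK134360 is intergenic at chr10:22056284-22058630 (minus strand). The Cyp51 transcript lies at chr5:4099124-4103381 (minus strand), that of Peli1 at chr11:21092118-21149402 (plus strand) and 4930451C15Rik at chr16:17545430-17554432 (minus strand).

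The brain arrays detected 30232 to 33692 probes, and 29086 probes were detected on all 3 of them. The 75th percentile of the signal was 119 to 154 in brain, 30.7 to 49.8 in liver and 305 to 384 in testis, so that the lowest detected level differed between tissues. It was -3.81 to -3.12 in brain, -1.61 to -0.98 in liver and -4.87 to -4.44 in testis. A transcript below background in liver therefore had only an upper limit that lies higher than in the other tissues, and a fold against a tissue with no detected array is given as "at least". Liver replicate 1 stood apart, with a 95th percentile of the negative control spots of 13.6. The median difference over all 60804 probes was -0.52, and brain detected 25887 of them on no array. Over the 14538 probes detected on all 15 arrays the median was -0.19. For these probes it was -0.33 against heart, -0.45 against kidney, -0.57 against liver and 1.01 against testis. Single differences are to be read against these medians, those of transcripts detected everywhere against the latter.

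The marker transcripts of neurons and oligodendrocytes were high on the arrays labelled Brain. The study chose those of Gap43 and Mobp as brain-specific on these same arrays, so their levels are no independent evidence for the label. Gap43, whose protein sits in growing axons and presynaptic terminals, had brain levels of 7.39, 7.31 and 7.24. Its levels were -1.13, -2.26 and -1.54 in heart, -4.93, -4.67 and -4.71 in kidney and -2.96, -3.31 and -3.65 in liver, while testis had -5.31, -6.44 and -6.69. All brain arrays lay above the other 12, of which only 2 heart arrays detected the transcript. The difference from the mean of the other tissues was 11.28 (SE 0.28, adjusted p = 4.55e-13 by limma), and brain was at least 389-fold above the nearest tissue.

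Mobp, a myelin protein gene of oligodendrocytes, had brain levels of 6.11, 6.04 and 5.28 and was detected on no other tissue array. Its difference was 10.53 (SE 0.25, adjusted p = 4.05e-13 by limma), at least 137-fold over the nearest tissue. Snap25, which encodes a SNARE protein of synaptic vesicle release, was dimmer, at 1.74, 1.36 and 1.84 in brain and undetected on all 12 other arrays. Its difference was 6.67 (SE 0.21, adjusted p = 3.05e-12 by limma), and the bound on its excess over the nearest tissue was at least 7.65-fold. For all 3 markers the brain arrays did not overlap the others.

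Against the mean of the 4 other tissues, 3721 probes were raised (6.12% of the 60804 tested) and 4210 were lowered (6.92%), at 5-fold or more and an adjusted p of 0.05 or less by limma, with detection on all 3 arrays of brain or, for lowered probes, of another tissue. The balance of raised and lowered probes depended on the scaling, with 3894 raised and 2706 lowered after quantile normalization. A stricter call asked for 5-fold against each of the 4 tissues separately, and for lowered probes also for detection on all 12 other arrays. It was met by 1689 raised probes (2.78%) and by 73 lowered probes (0.12%). Among the raised probes, 1370 exceeded 3 tissues 5-fold, 561 exceeded 2 and 101 exceeded 1. Among the lowered probes, 2012 were 5-fold under only 1 tissue, 1487 under 2, 596 under 3 and 115 under all 4.

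Testis was the tissue most lowered probes fell below: 2977 were 5-fold under testis, 1904 under liver, 1435 under kidney and 918 under heart. Testis alone was 5-fold over brain for 1700 of the 4210, against 175 for liver, 82 for kidney and 55 for heart. It was also the only tissue with detection on all 3 arrays for 2140 of them. Brain itself detected 3107 of the 4210 on no array and 726 on all 3. Of the 1689 raised over each tissue, 509 were detected on no other tissue array, 112 were detected on all 12, and the brain arrays lay above all others for 1679. Over all probes, the 3 brain arrays lay above the other 12 for 7.62% and below them for 5.36%. Liver was the nearest tissue for 810 of the 1689, heart for 411, testis for 270 and kidney for 198.

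**Figure D1:**
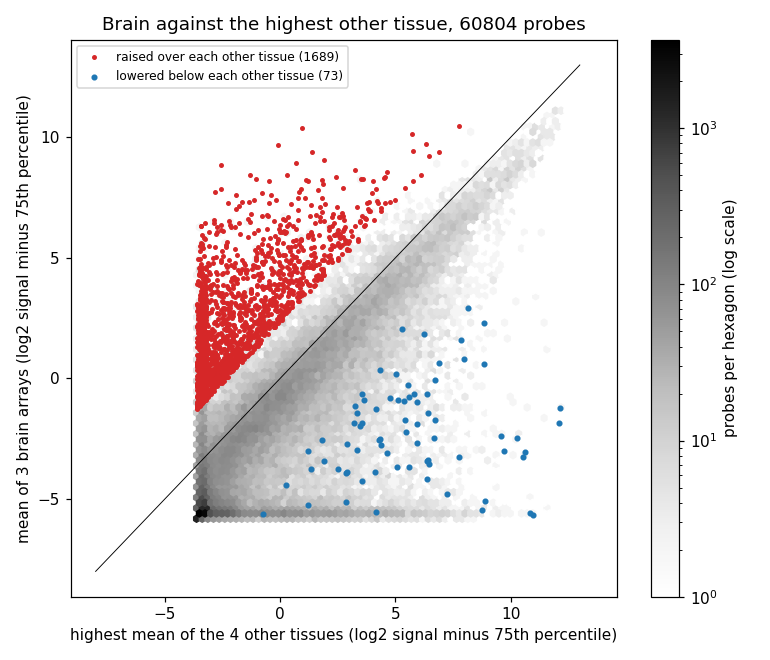
Mean level of the 3 brain arrays (vertical axis) against the highest mean level of the 4 other tissues (horizontal axis), both as log2 signal minus the 75th percentile, for 60804 probes; grey hexagons count probes on a log scale and the line marks equality. The 1689 probes raised over each tissue (red) lie above the line down to the level at which the other tissues have only a limit, and the 73 lowered below each (blue) lie below it.

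Brain was also set against each tissue singly, at the same fold and adjusted p by limma. In brain, 3555 probes were raised over heart (5.85%), 4039 over kidney (6.64%), 3929 over liver (6.46%) and 7669 over testis (12.6%). Lowered in brain were 2646 probes below heart (4.35%), 3102 below kidney (5.1%), 2937 below liver (4.83%) and 7450 below testis (12.3%). These comparisons share the brain arrays, and the differences between the counts were not tested. The counts rest on the level at which a dim probe is read. With limits in place of dim levels, 2521 of the 3721 and 1097 of the 1689 raised probes still had a fold of 5 or more. For lowered probes only the brain level was replaced by a limit, and 1519 of the 4210 still had such a fold. Dim levels of the other tissues were kept in that count.

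The 12 named transcripts with the largest excess over the nearest tissue had mean brain levels from 5.27 to 8.20. Those at coding genes were of Gap43 and Mobp, of Resp18, a protein of neuroendocrine secretory cells, of Homer3, a scaffold protein of the postsynaptic density, of Rmnd5a, a subunit of a ubiquitin ligase complex, and of Phkg1, the muscle form of the catalytic subunit of phosphorylase kinase. The intergenic ones were Meg3, a maternally expressed imprinted lncRNA, and AK079356, AK040676, AK149829, AK021108 and B430212C06Rik. The highest brain level was that of B430212C06Rik, at 8.28, 8.07 and 8.25. It was -2.27, -1.31 and -1.99 in heart, -0.48, -0.26 and -0.71 in kidney and -2.99, -1.44 and -1.03 in liver, while testis had -1.86, -2.28 and -2.31. Brain was thus clear of the next tissue, kidney, by 411-fold, a ratio in which both sides were detected on all arrays.

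AK040676 had brain levels of 7.26, 7.48 and 7.53 and was 374-fold above kidney, where it was detected on 3 arrays at -1.28, -0.77 and -1.33. Homer3 had brain levels of 6.48, 6.31 and 6.81, a difference of 10.11 (SE 0.30, adjusted p = 1.87e-12 by limma) and a bound of at least 226-fold. Resp18 had brain levels of 6.44, 6.55 and 6.36 and was at least 214-fold above the nearest tissue. Testis detected Resp18 on 3 arrays, at -2.76, -2.64 and -3.15, while heart, kidney and liver detected it on none. AK079356 had brain levels of 6.18, 6.26 and 6.92, was detected on no other tissue array and was also at least 214-fold above the nearest. For the remaining 5, the bounds were at least 115-fold for Rmnd5a, 94.3-fold for Phkg1, 192-fold for Meg3 NR_027651, 212-fold for AK149829 and 124-fold for AK021108. The brain arrays of all 12 lay above all other tissue arrays.

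**Figure D2:**
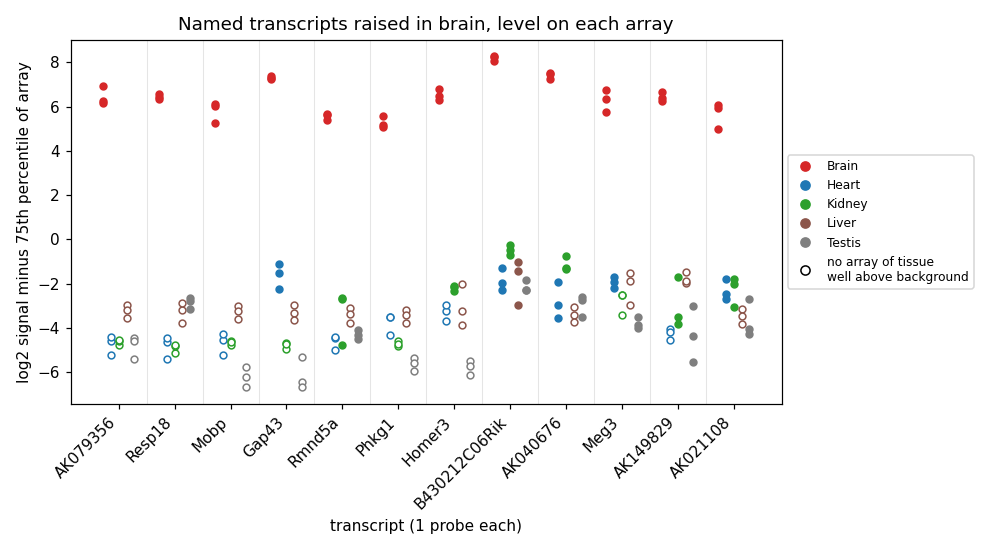
Level on each of the 15 tissue arrays (vertical axis, log2 signal minus the 75th percentile) of the 12 named transcripts with the largest excess in brain (horizontal axis); each point is an array, and open points mark a tissue with no array well above background. The brain points sit between 4.98 and 8.28, and the other points lie below 0.

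Of the 41 probes at neuron and synapse genes, which cover 39 of the 41 genes listed, 35 were raised over the mean and 27 over each tissue, and none was lowered. Their median difference was 4.26, against -0.52 over all probes. The study chose 31 of the 41 probes as brain-specific on these same arrays, so the count is not independent evidence. Receptors of glutamate were among the largest: Grm5, a metabotropic receptor, had brain levels of 3.56, 3.98 and 4.17 and a difference of 8.21 (SE 0.35, adjusted p = 6.98e-11 by limma). Gria1, an AMPA receptor subunit, had brain levels of 5.27, 5.15 and 5.72 against -2.22, -2.25 and -1.38 in heart, the nearest tissue, and a bound of at least 102-fold. Both receptors had brain arrays above all others, although testis detected Grm5 on 1 array and Gria1 on 3. Gria2, another AMPA subunit, differed by 6.53 (SE 0.34, adjusted p = 5.46e-10 by limma) and Grin1, an NMDA receptor subunit, by 4.48 (SE 0.23, adjusted p = 5.79e-10 by limma).

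Synaptic adhesion and cytoskeletal transcripts followed. Lrrtm1, a postsynaptic adhesion protein, differed by 7.13 (SE 0.22), with brain levels of 1.87, 2.25 and 2.20 and detection on no other array. Map2, which binds microtubules in dendrites, differed by 5.49 (SE 0.31). Transmitter-specific genes were dimmer: Th, the rate-limiting enzyme of catecholamine synthesis, had brain levels of -0.90, -0.18 and -0.75 and a difference of 3.61 (SE 0.40). Htr2c, a serotonin receptor, had brain levels of -1.06, -0.76 and -0.78 and a difference of 3.98 (SE 0.23). Both were above all 12 other arrays, but the bounds over the nearest tissue were only at least 1.6-fold and 1.34-fold. Of the 35 raised transcripts, 24 had a fold of 5 or more over the mean with limits in place of dim levels. With every level under a common floor of -0.98 set to that floor, an alternative chosen after the values were seen, 10 were raised.

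The 6 neuronal probes that were not raised were detected on all 15 arrays. Sez6, a neuronal transmembrane protein, had brain levels of 8.91, 9.85 and 9.50, between testis at 7.80, 8.61 and 8.43 and liver at 9.59, 10.65 and 10.25. The difference was 0.10 (SE 0.29, adjusted p = 0.772 by limma). Grid1, a delta glutamate receptor, had a difference of 0.49 (SE 0.18, adjusted p = 0.0302 by limma) and brain arrays of 7.07, 7.44 and 7.27 that overlapped kidney at 6.94, 7.35 and 7.35. The listed transcripts of Nlgn2 and Clstn3, both synaptic adhesion genes, differed by -0.33 (SE 0.20, adjusted p = 0.154 by limma) and -0.03 (SE 0.19, adjusted p = 0.895 by limma). Another probe at Clstn3, for AK213543, is also listed for the same Clstn3 transcript and had a difference of 0.06. An intronic antisense transcript at Atp2b2, Gm15082, had a difference of -0.26. The transcript listed under Atp2b2 itself, a calcium pump of the plasma membrane, was raised by 3.16 (SE 0.24, adjusted p = 3.94e-08 by limma) at brain levels of -2.09, -1.74 and -0.83.

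Of 9 probes at genes of glia and the brain barrier, 8 were raised over the mean and 5 over each tissue, with a median difference of 3.98, and 7 had been chosen by the study as brain-specific on these arrays. With the common floor 3 were raised. Aldoc, the aldolase of astrocytes, had brain levels of 3.88, 3.80 and 3.47, a difference of 6.84 (SE 0.32, adjusted p = 1.7e-10 by limma) and a bound of at least 31.7-fold. Slco1c1, a thyroid hormone transporter of brain capillaries, had brain levels of 1.46, 1.51 and 1.49 and a difference of 6.27 (SE 0.25, adjusted p = 3.49e-11 by limma). Siglech, a microglial receptor, had brain levels of -0.86, -0.99 and -0.98 and a difference of 3.98 (SE 0.23, adjusted p = 2.35e-09 by limma). These 3 were above all 12 other arrays. The exception was Acsbg1, an acyl-CoA synthetase of astrocytes, whose intronic sense transcript had a difference of -0.29 (SE 0.18, adjusted p = 0.17 by limma) and was brightest in liver.

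Imprinted loci had 17 probes, of which 11 were raised over the mean, 7 over each tissue and none lowered, with a median difference of 3.67. The probes cover 8 genes, of which 4 had a probe raised over the mean and 3 had one raised over each tissue. Meg3 gave 5 of the 11 raised probes and Rian 4, so the median rests largely on these loci. The study chose 7 of the 17 as brain-specific on these arrays, and with the common floor 5 were raised. Meg3 and Rian are maternally expressed lncRNAs of the same imprinted domain, and both have several probes. Meg3 had 7, and their differences ran from 0.00 to 9.28. NR_046475 had brain levels of 4.23, 5.06 and 4.04 and was detected on no other array, with a difference of 9.28 (SE 0.23, adjusted p = 4.47e-13 by limma). NR_003633 had brain levels of 5.90, 6.68 and 5.74 and was detected in heart at 3.32, 3.24 and 1.58, with a difference of 6.03 (SE 0.51). uc007pat.2 was detected in every tissue and had a difference of 1.98 (SE 0.24), and ENSMUST00000150851, with brain levels of 7.15, 6.94 and 7.01 inside those of the other tissues, had a difference of 0.00 (SE 0.20). The brain arrays thus lay above all others in some probes of Meg3 and among them in another. The probes of NR_046475 and uc007pat.2 are each also listed for the other transcript, and that of NR_027651 also for NR_003633, so the 7 are not separate readouts.

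The 4 Rian probes were all raised over the mean and 2 of them over each tissue, with brain means from -1.32 to -0.25 and no detection elsewhere. Peg13, a paternally expressed lncRNA in an intron of Trappc9, was detected everywhere, with brain levels of 7.42, 7.47 and 7.78. It stood at 5.84, 5.28 and 5.90 in heart, 3.93, 4.37 and 4.48 in kidney and 2.63, 2.56 and 2.54 in liver, while testis had 1.88, 1.90 and 1.92. The levels of Peg13 thus fell in order from brain through heart, kidney and liver to testis, with no overlap between neighbours. Its difference from the mean was 3.96 (SE 0.18, adjusted p = 1.89e-10 by limma), 15.5-fold, and 3.69-fold over heart. Nnat, a paternally expressed gene active in developing brain, differed by 3.86 (SE 0.25). H19, with brain levels of 8.47, 9.65 and 9.33, had a difference of -0.48 (SE 0.38, adjusted p = 0.287 by limma). Airn was detected on 1 brain array and on all heart arrays, and its difference was -0.58 (SE 0.37, adjusted p = 0.179 by limma).

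At the loci of developmental regulators, 7 of 8 probes were raised over the mean and 3 over each tissue, with a median difference of 3.56, and all 7 had been chosen by the study as brain-specific on these arrays. With the common floor 1 was raised. Dlx1as and Dlx6os1 are antisense lncRNAs of homeobox genes of forebrain interneurons. Dlx1as had brain levels of 3.09, 3.31 and 2.74, a difference of 6.23 (SE 0.45, adjusted p = 2.02e-08 by limma) and a bound of at least 24.7-fold, although liver detected it on 2 arrays and kidney and testis on 1 each. Dlx6os1 had brain levels of -0.11, 0.33 and 0.37 and a difference of 5.05 (SE 0.29, adjusted p = 1.64e-09 by limma). Uncx, another homeobox gene, had a difference of -0.16 (SE 0.17, adjusted p = 0.424 by limma), with brain levels between those of testis and liver.

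**Figure D3:**
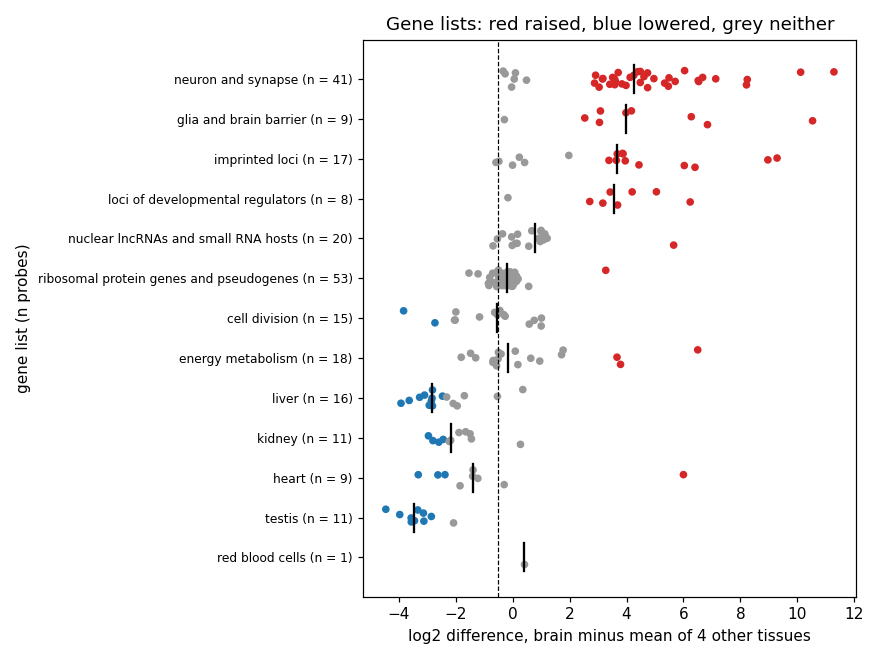
Difference of each probe, brain minus the mean of the 4 other tissues on the log2 scale (horizontal axis), for 13 gene lists (vertical axis, with the number of probes); red points were raised, blue lowered and grey neither, black bars are list medians and the dashed line is the median of all probes at -0.52. The neuron, glia, imprinted and developmental lists lie to the right, with medians of 3.56 to 4.26, and the liver, kidney, heart and testis lists mostly to the left.

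Of 20 probes for nuclear lncRNAs and hosts of small nucleolar RNAs, 1 was raised, with a list median of 0.80: Snhg11, with brain levels of 1.38, 1.07 and 0.04, detection on no other array and a difference of 5.65 (SE 0.28, adjusted p = 3.53e-10 by limma). Malat1 ENSMUST00000173523, the brightest of 3 Malat1 probes, had brain levels of 8.52, 8.56 and 8.89 and a difference of 1.00 (SE 0.31, adjusted p = 0.0134 by limma), under the 5-fold threshold. Its levels in kidney, 9.95, 8.77 and 9.32, overlapped those of brain. Neat1 had a difference of -0.68 (SE 0.63, adjusted p = 0.356 by limma).

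Of 53 probes whose gene symbols begin with Rpl or Rps, mostly ribosomal proteins and pseudogenes, 1 was raised and none lowered, with a median of -0.21. The raised one, AK016328, is an antisense transcript of Rps6ka1, which encodes a protein kinase and not a ribosomal protein, and its difference was 3.27 (SE 0.19). The sign of this list's median depended on the processing, at 0.27 with quantile normalization and 0.08 with normexp background correction. Of 18 energy metabolism probes, 3 were raised and none lowered, with a median of -0.15, which became 0.37 with quantile normalization and 0.13 with normexp. The 3 were Atp5b and Atp5d, subunits of mitochondrial ATP synthase, and Ckmt1, a mitochondrial creatine kinase, with differences of 6.50 (SE 0.23), 3.79 (SE 0.21) and 3.67 (SE 0.28). Ldha, a lactate dehydrogenase subunit, had brain levels of 5.84, 6.0 and 5.90, below all 12 other arrays, and a difference of -1.80 (SE 0.20, adjusted p = 2.75e-06 by limma), under the 5-fold threshold.

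The cell division list had 15 probes with a median of -0.54, and 2 were lowered below the mean, against 6.92% of all probes. Cks2, a subunit of cyclin-dependent kinases, had brain levels of -0.38, -0.77 and -0.82 and a difference of -3.82 (SE 0.19, adjusted p = 4.26e-10 by limma). It stood at 4.71, 4.71 and 4.74 in kidney, 4.03, 4.50 and 3.95 in liver and 4.95, 4.73 and 4.99 in testis, while heart was as low as brain at -0.87, -0.98 and -1.51. Tyms-ps, a pseudogene of thymidylate synthase, had brain levels of -2.0, -1.82 and -2.84, below all other arrays, and a difference of -2.72 (SE 0.22, adjusted p = 7.21e-08 by limma). Its nearest tissue was testis, at -1.08, -1.24 and -1.37.

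Marker transcripts of the other organs were mostly below background in brain. Brain detected on no array 13 of 16 liver, 9 of 11 kidney, 7 of 9 heart and 10 of 11 testis markers, and the other 2 heart markers on all 3 arrays. Of these, 10 liver, 4 kidney, 3 heart and 10 testis markers were lowered below the mean, with medians of -2.81, -2.17, -1.40 and -3.44, and the study chose all of the liver, kidney and testis markers and 7 of the heart markers as specific to a tissue on these arrays. With the common floor, 2 liver markers, 1 testis marker and no kidney or heart marker were lowered, and the medians were -1.60, -0.42, -0.24 and -1.72 for liver, kidney, heart and testis. The liver-secreted major urinary protein pseudogene Mup-ps12 stood at 9.42, 10.26 and 9.18 in liver and below background on all brain arrays. The exception was Atp2a2, the calcium pump of the sarcoplasmic and endoplasmic reticulum, whose exonic sense transcript NR_027838 was raised. It had brain levels of 4.23, 5.07 and 5.23 against -0.05, -0.08 and -0.05 in heart, a difference of 6.0 (SE 0.37, adjusted p = 4.46e-09 by limma) and a difference of 4.90 from heart alone. For the 1 probe of the red blood cell list, Hba-ps4, the difference was 0.39 (SE 0.29, adjusted p = 0.267 by limma).

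AK215672 was the named transcript with the largest deficit. Agpat2, to which it is exonic sense, encodes an acyltransferase of phospholipid and triglyceride synthesis. Its levels were 0.76, 0.53 and 0.56 in brain against 6.16, 5.76 and 6.38 in heart, 5.70, 6.09 and 5.70 in kidney and 8.70, 8.79 and 9.07 in liver, while testis had 6.27, 6.69 and 6.75. Brain detected it on all 3 arrays, so the deficit was measured and not a limit. The difference was -6.22 (SE 0.19, adjusted p = 2.45e-12 by limma), 37.1-fold under kidney and 302-fold under liver.

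Gm15361 had brain levels of 2.0, 1.88 and 1.65, with kidney the nearest tissue at 4.28, 4.24 and 4.40 and testis the highest at 6.48, 6.0 and 6.27. Its difference was -2.98 (SE 0.17, adjusted p = 2.02e-09 by limma), and brain was 5.53-fold under the nearest tissue. H2-K2, a transcript of the class I major histocompatibility region, had brain levels of 1.30, 2.43 and 1.11, with testis the nearest at 3.16, 4.19 and 4.48 and liver the highest at 7.94, 9.11 and 6.52. Its difference was -3.53 (SE 0.68, adjusted p = 5.03e-04 by limma), and brain was 5.02-fold under the nearest tissue, only just past the threshold. All 3 transcripts had brain arrays below the other 12. Of the 73 probes lowered below each tissue, brain detected 40 on all 3 arrays and 12 on none, and only these 3 (4.11%) had a name. Without testis in the comparison the number lowered below each tissue was 354.

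The other 9 named transcripts were taken from the comparison with the mean, and all 9 had been chosen by the study as testis-specific. For 1700027A15Rik, the first of them, testis stood at 8.04, 8.57 and 8.53 and no array of brain, heart, kidney or liver was above background. Testis was at least 3716-fold over brain. For the rest, 1700009J07Rik, 1700031M16Rik, AK005929, 1700029H14Rik, AY702103, 4930544D05Rik, 1700008K24Rik and Speer6-ps1, testis was at least 302-fold to 2378-fold over brain. Heart detected AK005929 on 1 array and liver detected 1700008K24Rik on 1, and brain detected none of the 9 on any array. The order of brain among the undetected tissues has no meaning for these 9.

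**Figure D4:**
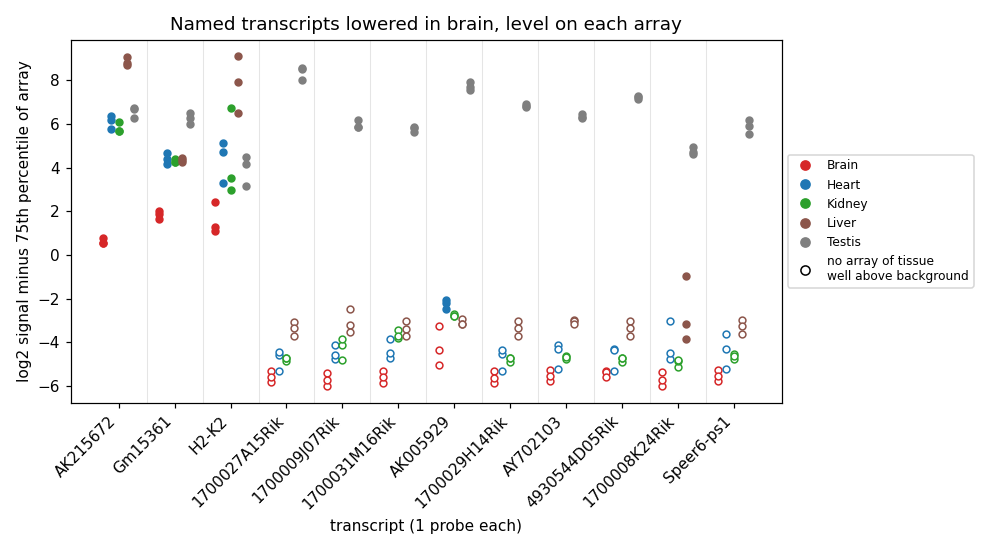
Level on each of the 15 tissue arrays (vertical axis, log2 signal minus the 75th percentile) of the 12 named transcripts lowered in brain (horizontal axis); each point is an array, and open points mark a tissue with no array well above background. AK215672, Gm15361 and H2-K2 are detected in brain below every other array, while the other 9 are bright only in testis, between 4.64 and 8.57.

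The named probes come from different lists, and the lists differ in how they were made. Of the 1553 probes available from the list of brain lncRNAs, 158 were raised over the mean, 95 over each tissue, and 6 were lowered. This part holds the rows brightest in brain, so its counts do not describe the whole list. Of the 595 on the list of brain-specific lncRNAs, 593 were raised over the mean and 370 over each tissue. Both lists were made from these arrays, so the counts are not independent evidence. The 1404 available from the list for F9, a mouse embryonal carcinoma cell line, were not chosen on brain. Of these, 27 were raised over the mean and 36 lowered, against 6.12% and 6.92% of all probes. Against each tissue, 7 were raised and 3 lowered. By class, 12 of 271 exonic sense transcripts (4.43%) and 12 of 786 intergenic ones (1.53%) of this list were raised, and 9 (3.32%) and 17 (2.16%) were lowered. None of 35 bidirectional and 54 exonic antisense transcripts was raised. The classes were not tested against each other.

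The 7 probes on the F9 list that were raised over each tissue include Gap43 and Meg3 NR_003633, and 4 others are named here after their values were seen. AK203051, a transcript of Igsf8, had brain levels of 6.75, 7.12 and 7.23 and a 9.17-fold excess over heart. Its probe is also listed for NM_080419, the Igsf8 mRNA, and that of AK210908 for NM_022417, the Itm2c mRNA. AK210908, a transcript of Itm2c, had brain levels of 9.39, 9.50 and 9.24 and a 5.6-fold excess over kidney. Gm8916, an intergenic transcript, was 8.48-fold above liver, and Uba6 was 21.3-fold above heart. These 4 were detected on all 15 arrays, so these folds rest on no limit, and the brain arrays of each lay above the other 12.

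The Uba6 probe, of a transcript at a gene for a ubiquitin-activating enzyme at chr5:86120841-86172739 (minus strand), had brain levels of 10.12, 10.35 and 9.96. It stood at 4.85, 7.08 and 5.26 in heart, 4.50, 4.65 and 4.69 in kidney and 3.94, 4.62 and 4.90 in liver, while testis had 4.05, 5.13 and 4.88, giving a difference of 5.26 (SE 0.37, adjusted p = 1.61e-08 by limma). The listed sequence of this probe was compared with the first 50 transcribed bases of Bc1, a neuronal noncoding RNA that lies at dendrites, as given by the RefSeq promoter table for GRCm38.p6. Of 37 aligned bases, 35 were identical, and the next highest number among the 1829 probes was 27. The first 30 aligned bases follow, with identical bases in capitals.
Uba6: GGGGTTGGGGAcTTAGCTCAGTGGTAGAGt
Bc1: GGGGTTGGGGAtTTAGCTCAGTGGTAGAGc
The Bc1 bases lie at chr7:144914470-144914499 on the plus strand. Whether the signal of this probe came from the Uba6 transcript, from Bc1 or from other RNAs with such bases was not tested.

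The letters TCTTCCC were found in 49 of the 1829 probe sequences (2.68%), on 17 chromosomes, and their reverse complement in 13 (0.711%). Of the 49 probes, 33 were raised over the mean and 31 over each tissue, with a median difference of 6.75. Among the 1780 probes without these letters, 64 were raised over each tissue. The 31 raised over each tissue had brain means from 3.79 to 8.20 and a median of 4.72, and their median levels were -2.82 for heart, -2.51 for kidney, -4.30 for testis and -2.79 for liver. They were 31 of the 95 probes with a sequence that were raised over each tissue. None of the 13 probes with the reverse complement was raised.

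Carriers of these letters did not all behave alike. Of the 49 probes, 9 are also on the F9 list, and none of these 9 was raised, while 31 of the other 40 were raised over each tissue. The other 40 entered only through the rows brightest in brain, so this split is tied to how the probes were listed. All 425 probes that entered so hold 88 of the 95 raised over each tissue, and the 385 without the letters hold 57. Gm15484, one of the 9, had brain levels of 5.33, 5.31 and 5.23 among 5.43, 5.78 and 5.53 in heart and 5.13, 5.38 and 5.69 in kidney, and a difference of -0.12 (SE 0.18, adjusted p = 0.566 by limma). Raised carriers included transcripts of genes of different roles, among them Atp5b, Phka2, a regulatory subunit of phosphorylase kinase, Rxrb, a retinoid X receptor, and Zfp2, a zinc finger gene, with differences of 6.50, 8.17, 6.30 and 7.94, and these were named after their values were seen. Within the gene lists, Homer3 and Atp5b are raised carriers, and Pttg1 and Tyms-ps are carriers that were not raised, with differences of -0.54 and -2.72. The letters were picked from the probes that were raised, a match is a description of the probe, and no reason for it was tested.

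A repeat of GTGTGTGT was found in 20 of the 1829 sequences (1.09%) and its reverse complement in 9 (0.492%). Of the 20, 15 were lowered below the mean, and these made up 15 of the 36 probes on the F9 list that were lowered, with a median difference of -3.05 over the 20. Relative to brain, the medians of the 15 were 2.11 for heart, 2.68 for kidney, 0.77 for testis and 7.37 for liver. XLOC_023801 had brain levels of 1.82, 2.10 and 2.0, testis levels of 3.06, 2.87 and 2.90, and liver levels of 10.17, 9.84 and 10.78. The difference of XLOC_023801 was -3.53 (SE 0.20, adjusted p = 1.49e-09 by limma). Cyp51, at an enzyme gene of cholesterol synthesis, had brain levels of 1.56, 1.88 and 1.56 and liver levels of 10.15, 9.30 and 10.20, and Peli1, at a gene of a ubiquitin ligase of innate immunity, had 4.64, 5.29 and 5.29 against 11.66, 11.68 and 12.21. In all 3 the brain arrays lay below the others.

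The probes with the reverse complement of the repeat ran in the opposite direction. Of the 9, 6 were raised over the mean and none over each tissue. All 9 are among the rows brightest in brain, and none of the 6 raised ones is on the F9 list. Of the 20 with GTGTGTGT, 19 are on the F9 list, among them all 15 lowered ones, and 5 are among the brain rows. Within the F9 list, 15 of the 19 probes with GTGTGTGT were lowered, against 21 of the 1385 without it. Of the 425 probes not on that list, with or without a repeat, 135 were raised over the mean. Only 2 of the 9 with the reverse complement are on the F9 list, so the opposite directions of both forms cannot be compared within it. Relative to brain, the medians of the 6 were -1.11 for heart, -2.74 for kidney, -3.41 for testis and -6.51 for liver. AK134360 had brain levels of 6.98, 7.25 and 7.24, heart levels of 5.50, 5.80 and 6.74 and liver levels of -0.34, 1.71 and 0.51, a difference of 3.52 (SE 0.36, adjusted p = 8.26e-07 by limma). For both forms of the repeat the largest gap was to liver, whose arrays also had the lowest 75th percentile of signal, and the part of this in the result was not tested. These probes, too, were picked by their values, and the match is a description.

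**Figure D5:**
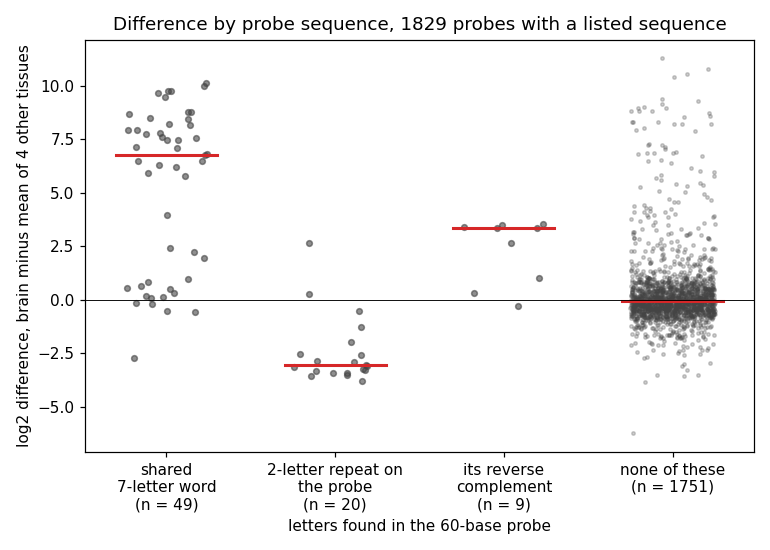
Difference of each probe, brain minus the mean of the 4 other tissues on the log2 scale (vertical axis), for the 1829 probes with a listed sequence, grouped by letters in the probe (horizontal axis, with the number of probes); points are probes and red bars are medians. The 49 probes with the 7-letter word fall into a raised set and a set near 0, the 20 with the repeat of GT lie mostly near -3.05, and 6 of the 9 with its reverse complement lie above 2.

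Of the symbols besides Meg3 with 3 or more probes, only those with a probe raised over the mean are given here. That each holds a raised probe was thus fixed in advance. The study chose most of their probes as brain-specific on these arrays, so their being raised is no independent evidence. For A530058N18Rik, C130071C03Rik, 5330434G04Rik, 5930412G12Rik and 1500004A13Rik it chose all of them. All 5 probes of A530058N18Rik were raised over each tissue, with differences from 3.89 to 5.89 and bounds over the nearest tissue of only at least 1.02-fold to 5.27-fold. C130071C03Rik, an intergenic transcript on chromosome 13, had 3 probes, all raised over each tissue, with differences of 4.46, 7.55 and 8.84. Its brightest probe, ENSMUST00000052354, had brain levels of 4.46, 4.70 and 4.66, was detected elsewhere on 1 kidney array and was at least 59.6-fold above the nearest tissue. All 3 probes of 5330434G04Rik were raised over each tissue (5.11 to 5.85), with bounds over the nearest tissue of only at least 2.72-fold to 5.27-fold. For 2610017I09Rik, 4 of 4 probes were raised over the mean and 2 over each tissue, and for 5930412G12Rik, 3 of 3 and 2. The bounds of the probes raised over each tissue were at least 4.70-fold and 6.12-fold for 2610017I09Rik. For 5930412G12Rik they were at least 2.25-fold and 1.59-fold. For 1500004A13Rik, 2 of 3 probes were raised over each tissue, and for XLOC_001914, 2 of 3 were raised over the mean only, with differences from 0.33 to 3.23.

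Replicate 1 of every tissue was on 1 slide and the other arrays of each tissue but heart shared another, so the differences could be given for each slide. These are parts of the arrays on which the probes were called, so the same direction was nearly given in advance and is no independent evidence. The direction was the same within both for 3720 of the 3721 raised and 4204 of the 4210 lowered probes, and for all 1689 and all 73 of those called against each tissue. Gap43 differed by 10.97 within the first slide and by 12.19 within the second, and AK215672 by -5.95 and -6.64.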

How the data were processed

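Total RNA of 5 mouse tissues was hybridized to 1-colour Agilent arrays. Per the file headers, the values deposited by the authors are intensities from Agilent Feature Extraction, and the processed signal is an intensity after background subtraction. The table of the whole series held the same intensities, with a largest relative difference of 0.000228. The log2 of the processed signal minus the 75th percentile of the array was tested with limma 3.58.1 (lmFit and eBayes, R 4.3.3) over 60804 probes and the 15 tissue arrays, with Benjamini-Hochberg adjustment. The study's methods give a t-test, which was run as an alternative. Detection was the software's flag for a signal well above background. For a probe not well above background on any array of a tissue, the fold used the higher of the lowest detected signal and its own signal per array. For folds of brain under other tissues, this was done for brain only. The normexp alternative, planned on mean signals, used median signals (offset 50), as the spot tables used here hold no mean signal of the spots. The number of arrays limits the precision. The fit was tested on simulated data.

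Named transcripts were the markers, the members of the gene lists, the 12 raised over each tissue with the largest difference over the nearest tissue, and 12 lowered. Of the last, 3 were below each tissue and 9 were filled up by the size of the difference from the mean, 1 probe a symbol. Members and lists were chosen with earlier results of these data known. Symbols, classes, positions and sequences came from the available parts of the study's transcript lists, which name no genome build here. Of 97 RefSeq transcripts, 95 lay inside the span of their gene in GRCm38 (tolerance 5 bases). The values of 1 named transcript are not reported here.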

Additional observations from a re-analysis of the deposited data

Results flagged for a closer look

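Of the 509 transcripts that were raised in brain over each other tissue and well above background on no other tissue array, some had a signal in the cell lines, which the comparison does not use. In F9, an embryonal carcinoma line, 30 were well above background on all 3 arrays. The GC-1 line had 13 such transcripts, and 18 were found for GC-2. Of all 60804 probes, single arrays had 23525 to 27537 well above background for F9, 26876 to 27578 for GC-1 and 26120 to 28655 for GC-2. The shares among the 509 were below those of single arrays over all probes, which was nearly given in advance. The 509 were chosen as undetected in the other tissues, and detection on all 3 arrays asks more than detection on a single array.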

How the results depend on the processing

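Leaving out each array in turn gave 3692 to 3845 raised and 4075 to 4492 lowered against the mean, and 1636 to 1748 raised and 70 to 83 lowered against each tissue. Normexp background correction gave 1483, 838, 801 and 23 in the same order, and a 2-fold threshold 7953, 11626, 3533 and 454. A common floor, chosen after seeing the data, gave 1566, 878, 981 and 34, and with scaling on probes detected on all 15 arrays 1990 raised and 945 lowered against the mean and 35 lowered below each. Quantile normalization gave 2706 lowered below the mean, the methods' t-test 1119, and 326 after Benjamini-Hochberg adjustment. Below each tissue, 115 were lowered with no detection asked and 354 without testis. Lowered transcripts that brain did not detect have only limits, so their size is not measured. With the replicate number as a block the counts were 3722, 4211, 1689 and 73. Same-numbered arrays correlated at -0.26 to 0.51 (median 0.17), with 21 of 30 pairs over 0.1. Of the 15 arrays, 11 correlated best with those of their own number. Whether the numbers stand for an animal or a batch was not settled, and the main fit did not use them. Of 195 named transcripts, 11 changed sign under a setting and had an adjusted p of 0.05 or less in that setting or in the main fit. Changes of sign without such a p were not counted. The 11 were, with quantile normalization, Clstn3 (0.37), Rn45s (0.27), Cox2 (0.21), Atpase6 (0.052) and Atp5l (0.034). Without testis they were Pttg1 (0.21), Mdh2 (-0.83), Zpbp2 (0.12) and Hba-ps4 (-0.92). With the common floor Gls2 changed (-0.47, and -0.46 with the other scaling). Tmem72 changed with normexp (-0.39) and with the common floor and other scaling (-0.52). The cause was not tested. In the main fit, 162 of the 195 had an adjusted p of 0.05 or less by limma. The methods' t-test was run with the arrays of the other tissues pooled. By it, 75 of the 162 had a p over 0.05, and 85 had one after Benjamini-Hochberg adjustment.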
